A study of Rattus norvegicus with 13 samples.

Results

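Neurons package peptide hormones and growth factors into dense-core vesicles, and the genes described here encode proteins of that route. They are the granins *Chga* (chromogranin A), *Chgb* (chromogranin B), *Scg2* (secretogranin II), *Scg3* (secretogranin III) and *Scg5* (the convertase chaperone 7B2), and the processing enzymes *Pcsk1*, *Pcsk2*, *Cpe* and *Pam*. Members were the probe sets, the groups of short probes that report on one transcript on a GeneChip array, that carry one of these 9 gene symbols and no other. The rule found 10 probe sets of 8 genes among 31042 that are not controls, 3 of them for *Pam* and 1 for each other gene. *Pcsk1* was not analysed here.

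Granins are acidic proteins that aggregate in the Golgi apparatus with peptide precursors and help to form the vesicle. Inside it, the convertases PC1/3 (*Pcsk1*) and PC2 (*Pcsk2*) cut precursors at pairs of basic residues, carboxypeptidase E (*Cpe*) trims the basic residues left at the new end, and the amidating enzyme (*Pam*) modifies peptides that end in glycine. In neurons, the vesicles are loaded in the cell body and carried along the axon to release sites.

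RNA was measured on 13 arrays of rat cortical neurons grown for 13 days in compartmentalised microfluidic platforms, culture devices that let axons extend into a compartment free of cell bodies. Uninjured axons gave 7 arrays, regenerating axons, cut on day 11 and left to regrow for 2 days, gave 3 arrays, and neurons from the neuronal compartment, uninjured, gave 3 arrays. All cultures were grown in Neurobasal medium with B27 supplement, and each array holds material pooled from 3 platforms. RNA was amplified in 2 rounds before labelling. Nothing in the labels tells whether replicate arrays are independent cultures, so the p-values rest on a spread that may be technical, and precision is limited by how few arrays there are.

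The deposited value is a linear ratio, which carries no signal level, so levels of different genes cannot be ranked and presence in axons cannot be read from it. The uninjured arrays 1 to 3 and 4 to 6 are each scaled to their own median in every row, and array 7 reads exactly 1 throughout, so it holds no measurement. Regenerating and neuron arrays were read as ratios to uninjured axons. The labels do not state this, and every direction against uninjured axons rests on it. The median ratio over all probe sets was 1.01 to 1.02 in regenerating arrays and 0.937 to 0.978 in neuron arrays. Spiked hybridisation controls read 0.276, 0.910 and 0.157 in neuron arrays 1, 2 and 3, and 1.14, 1.44 and 1.57 in the regenerating arrays. GAPDH, read at its 3′ end, stood at 13.7, 7.19 and 16.6 in neurons and 0.355, 0.159 and 0.142 in regenerating axons. Beta-actin, read in the same way, stood at 71.2, 38.4 and 80.1 in neurons, and at 0.809, 0.693 and 0.625 in regenerating axons. For GAPDH the 3′ minus the 5′ reading on the log2 scale was -2.22 to -1.74 in neurons, -1.14 to -0.48 in regenerating axons and -0.15 to 0.48 in uninjured axons. For beta-actin the same difference was 0.42 to 0.78, -0.63 to 0.02 and -0.05 to 0.23. The part of these shifts in the results for the granin route was not tested.

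A short sequence is shown for 6 genes because a cyclic AMP response element is known from granin promoters. Whether it has any part in the differences between neurons and axons was not tested. RefSeq start-site sequences (GRCr8) were matched for 7 of the 9 genes, all but *Chga* and *Pcsk1*, and the 250 bases before the listed start were searched on both strands. The motif TGACG, the core of the element, was found in 6 of 7, against 20.4% of 21842 protein-coding genes (18.2% of all 33469 entries). The full palindrome TGACGTCA, which contains TGACG on both strands, was found in *Scg2* alone, against 1.89% of protein-coding entries. *Chgb* held neither. The GC content of the 250 bases was 53.2% to 79.6% in the 7 genes, beside a median of 51.2% over all entries. The matched letters are in capitals, each line runs 5′ to 3′ along the gene, and in *Pcsk2* the match is on the opposite strand:
Scg2: ggctgagccggTGACGTCAgcgaggaatgc
Scg3: gcgctgggtcgcTGACGccatcctcacgc
Scg5: tgcggagggaggTGACGca
Pcsk2: ctggcgggcgcgCGTCAcccgggctggcg
Cpe: ccatttggctttTGACGtgggtctgagcc
Pam: ccgaatgatgacTGACGcgggtctgcgcg

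The *Scg2* stretch lies at chr9:88256971-88257000 on the minus strand, and the match starts 123 bases before the listed start. The *Scg3* stretch is chr8:85322537-85322565 (minus strand, 69 bases before the start) and that of *Scg5* is chr3:121042796-121042814 (minus strand, 7 bases before the start). On the plus strand, the *Pcsk2* stretch is chr3:151333869-151333897 (57 bases before the start), that of *Cpe* is chr16:29796522-29796550 (173 bases before the start) and that of *Pam* is chr9:105570251-105570279 (105 bases before the start). For *Scg2*, *Scg5* and *Pam* the listed start lies inside the span of the annotated gene and is not its outer end. A match of letters is a description of sequence and does not show that a factor binds there.

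Neurons were set against uninjured axons to see how transcripts are divided between the neuronal compartment and the axon. All 5 granins, *Cpe*, *Pcsk2* and 1 of the 3 *Pam* probe sets were higher in neurons, from 1.65-fold for *Pcsk2* to 53.96-fold for *Cpe*. These 8 of 10 probe sets passed the test as higher and none as lower. Of all 31042 probe sets, 28.4% passed as higher and 27.5% as lower. The median over the 10 probe sets was log2 2.20, beside log2 -0.07 over all probe sets. The test was limma on log2 ratios with Benjamini-Hochberg adjustment over all probe sets, a threshold of 0.05, and the reference given the error of 1 array. Errors are its standard errors (SE) of the fitted difference, with 3 arrays in the group. Against uninjured axons they include the error assigned to the reference, so they are not the spread of the 3 arrays alone.

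**Figure D1:**
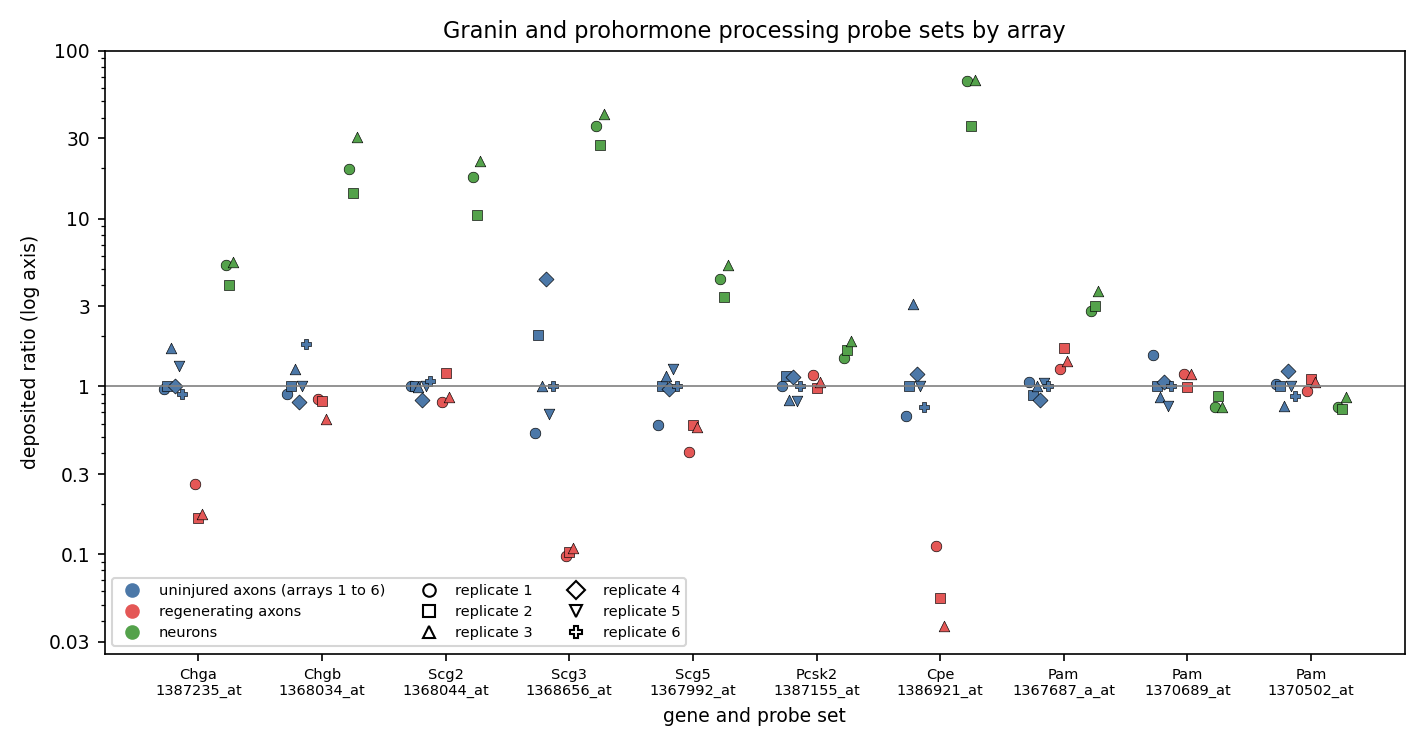
Deposited ratio (log axis) of each of the 10 probe sets in the 6 measured uninjured axon arrays, the 3 regenerating axon arrays and the 3 neuron arrays, 1 point per array, with the marker shape giving the replicate number. Green neuron points lie above all blue points for 8 probe sets, and red regenerating points lie below all blue points for *Chga*, *Scg3* and *Cpe*.

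Among the granins, *Scg3*, whose protein binds chromogranin A to the vesicle membrane, showed the largest excess in neurons. It read 35.5, 27.4 and 41.7 in neuron arrays 1, 2 and 3, and between 0.525 and 4.34 (median 1) in the 6 uninjured arrays. The lowest neuron array is thus well above the highest uninjured array, although the uninjured arrays spread 8.27-fold. The fitted difference was log2 5.10 ± 0.92 (34.4-fold, limma adjusted p = 0.00150).

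*Chgb*, a granin abundant in brain vesicles, read 19.7, 14.2 and 30.7 in neurons and 0.802 to 1.78 (median 1) in uninjured axons. The groups did not overlap, and the difference was log2 4.36 ± 0.47 (20.5-fold, adjusted p = 7.70e-05 in limma). *Scg2*, the precursor of the peptide secretoneurin, read 17.8, 10.5 and 22.1 in neurons and 0.827 to 1.08 (median 1) in uninjured axons. Its uninjured arrays were the tightest of the 10 probe sets (SD of log2 ratios 0.13), and its difference was log2 4.002 ± 0.350 (16.0-fold, adjusted p = 2.20e-05 in limma).

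*Chga*, which encodes the granin that gave the family its name, read 5.28, 4.003 and 5.54 in neurons and 0.899 to 1.69 (median 1) in uninjured axons, log2 2.29 ± 0.35 (4.89-fold, adjusted p = 0.000619 in limma). *Scg5* read 4.39, 3.42 and 5.31 in neurons and 0.587 to 1.26 (median 1) in uninjured axons, log2 2.10 ± 0.37 (4.301-fold, adjusted p = 0.00135 in limma). For both genes every neuron array lay above every uninjured array. The 95% intervals of their differences, log2 1.499 to 3.08 and 1.27 to 2.94, lie below that of *Scg2* (3.22 to 4.78). Whether the genes differ from each other in this excess was not tested.

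Of the processing enzymes, *Cpe* read 66.0, 35.5 and 66.9 in neurons and 0.664 to 3.08 (median 1) in uninjured axons. Its difference of log2 5.75 ± 0.70 (adjusted p = 0.000150 in limma) exceeded that of 99.8% of all probe sets. Its ratios were close to those of the beta-actin control on the same arrays. The convertase gene *Pcsk2* read 1.47, 1.65 and 1.86 in neurons and 0.815 to 1.16 (median 1) in uninjured axons. These groups did not overlap either, but the difference was small, log2 0.72 ± 0.26 (1.65-fold, adjusted p = 0.0379 in limma). The call for *Pcsk2* was lost without uninjured replicate 1 (adjusted p = 0.0504), without uninjured replicate 6 (0.0511) and without neuron replicate 3 (0.0808). Over all 10 probe sets, 8 had all 3 neuron arrays above all 6 measured uninjured arrays, as did 33.1% of all probe sets, and none had all 3 below, as did 36.8% of all.

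*Scg5* and *Pcsk2* encode partners, since 7B2 keeps the PC2 precursor inactive and helps it to mature. In neurons their ratios were 4.39 and 1.47 on array 1, 3.42 and 1.65 on array 2, and 5.31 and 1.86 on array 3. The chaperone therefore showed the larger ratio on all 3 arrays, which compares 2 ratios and not 2 transcript levels. *Pcsk1n*, which encodes proSAAS, an inhibitor of PC1/3, read 18.7, 12.9 and 23.98 in neurons and 0.709 to 1.10 in uninjured axons. Its difference was log2 4.16 ± 0.35 (adjusted p = 1.77e-05 in limma over genes).

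The 3 probe sets of *Pam* did not move together. The probe set 1367687_a_at, designed on the accession M25719, read 2.80, 3.03 and 3.73 in neurons and 0.825 to 1.06 (median 1) in uninjured axons, log2 1.66 ± 0.23 (adjusted p = 0.000351 in limma). The probe set 1370689_at (M82845) read 0.754, 0.881 and 0.755 in neurons and 0.763 to 1.53 in uninjured axons, log2 -0.33 ± 0.32 (adjusted p = 0.386 in limma). The probe set 1370502_at (AW534339) read 0.750, 0.729 and 0.866 in neurons and 0.761 to 1.24 in uninjured axons, log2 -0.36 ± 0.26 (adjusted p = 0.250 in limma). The first lay above every uninjured array in neurons, while the other two overlapped the uninjured arrays.

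Within each array, the first *Pam* probe set read 3.72, 3.78 and 4.61 times the geometric mean of the other two in neuron arrays 1, 2 and 3. The same quotient was 1.19, 1.61 and 1.26 in regenerating axons and 0.722 to 1.23 in uninjured axons. The divergence was thus largest in neurons. Averaged over its 3 probe sets, *Pam* differed by log2 0.32 ± 0.20 (adjusted p = 0.190 in limma over genes), so the gene mean gives no call where 1 probe set does. The *Pam* transcript is known to be spliced in several forms, and which forms each probe set reads was not tested.

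The 3 neuron arrays kept an order across members. Array 3 was highest for 9 of the 10 probe sets and array 2 lowest for 7. The upper quartile of all ratios ran the same way, at 2.18, 1.80 and 2.49 on arrays 1, 2 and 3. The 3′ readings of GAPDH and beta-actin kept this order too, and the spiked hybridisation controls ran the opposite way (0.276, 0.910 and 0.157). The part of array scale in the order of the members was not tested. In neurons the highest and lowest array differed by 1.17-fold to 2.15-fold, and *Chgb* and *Scg2* were the probe sets that varied most.

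Cell type markers moved with this comparison. Of 12 neuronal markers 12 passed as higher in neurons, and their median ratio was 8.34, 5.01 and 10.3 on the 3 neuron arrays. Of 11 astrocyte markers 10 passed as higher, with median ratios of 9.14, 9.003 and 10.1, against 0.985 to 1.06 in the 6 uninjured arrays. Of 9 microglial markers none passed as higher and 8 passed as lower. Whether the microglial signals stood above background in any group cannot be read from a ratio. Of 9 oligodendrocyte markers 3 were higher and 1 lower, and of 8 fibroblast and vessel markers 0 and 4. Of 7 interneuron and 7 excitatory neuron markers, 5 were higher and 1 lower in each list. Beside these counts, 36.9% of all 14217 genes passed as higher and 23% as lower. Since *Cpe* and several granins are made by astrocytes as well as neurons, an excess in the neuronal compartment is not assigned to a cell type here. The part of glial RNA in it was not tested, and more cells of a type cannot be told apart from more RNA per cell.

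**Figure D2:**
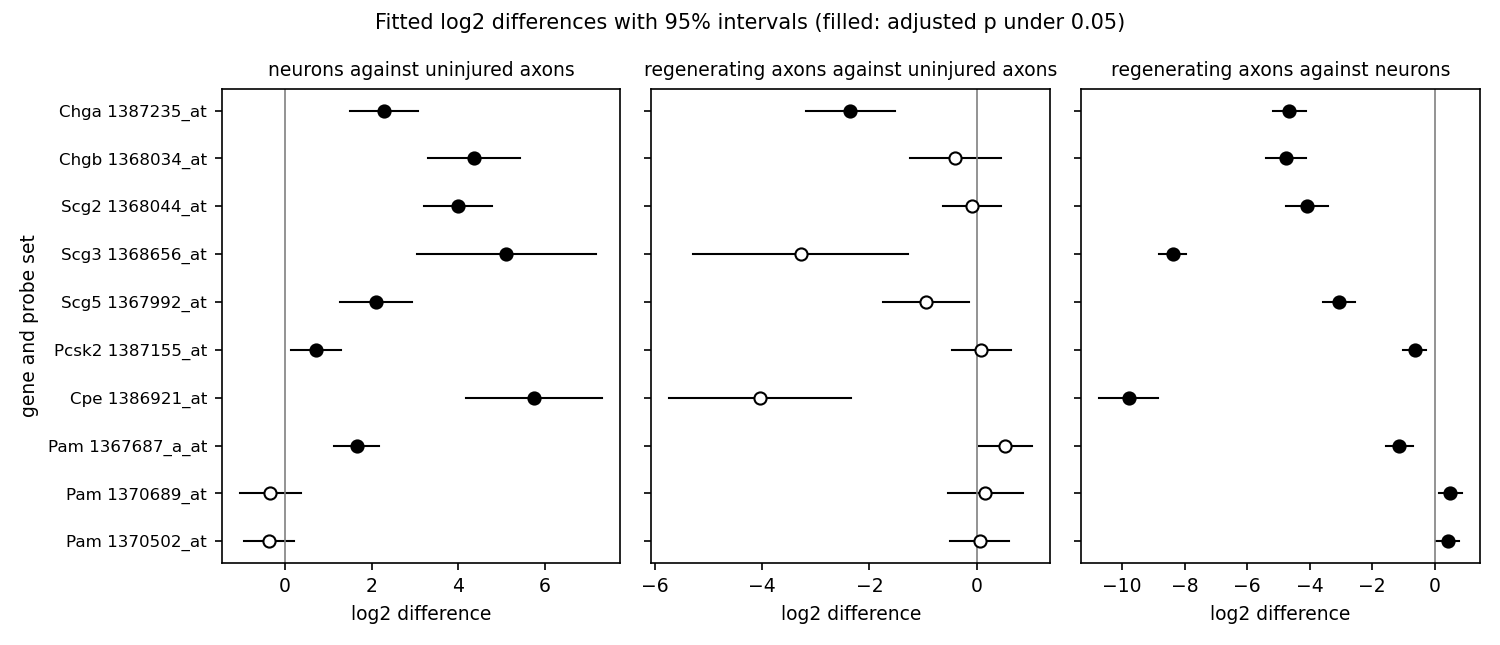
Fitted log2 differences (points) with 95% intervals (lines) for the 10 probe sets in the 3 comparisons, filled where the adjusted p was under 0.05. *Cpe* and *Scg3* lie farthest from 0 in every panel, and the 3 *Pam* probe sets fall on both sides of 0 in the left and right panels.

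Regenerating axons were set against uninjured axons to follow axonal transcripts through injury and regrowth. *Chga* was lower in regenerating axons, 5.13-fold, and was the only 1 of the 10 probe sets to pass, with none higher. Of all probe sets 0.335% passed as lower and 0.00966% as higher. *Cpe* and *Scg3* had larger fitted differences than *Chga* but did not pass, and *Chgb*, *Scg2* and *Pcsk2* were near the reference. The median over the 10 probe sets was log2 -0.24, beside log2 0.03 over all probe sets.

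*Chga* read 0.261, 0.164 and 0.174 in regenerating arrays 1, 2 and 3, below all 6 measured uninjured arrays (0.899 to 1.69). The difference was log2 -2.36 ± 0.37 (limma adjusted p = 0.0436). The call was lost without uninjured replicate 2 (adjusted p = 0.0748), 5 (0.0520) or 6 (0.0721), without regenerating replicate 2 (0.125) or 3 (0.125), and with 0.1 added to each ratio (0.0503). Over all alternatives its adjusted p ranged from 9.2e-05 to 0.125, with the same direction in each, and that of *Cpe*, described next, from 0.000168 to 0.181.

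*Cpe* read 0.112, 0.0545 and 0.0372 in regenerating axons, against a lowest uninjured array of 0.664. All 3 arrays were far below the uninjured arrays, and 0.209% of all probe sets had a lower mean. The difference was log2 -4.04 ± 0.76 (16.4-fold, adjusted p = 0.0616 in limma), which did not pass. The probe set passed without uninjured replicate 1 (adjusted p = 0.0323), without uninjured replicate 3, its highest uninjured array at 3.08 (0.0271), and without regenerating replicate 1 (0.0201). It passed as well with the reference taken without error (0.000168) and with the 6 uninjured arrays as 1 group (0.000452).

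*Scg3* read 0.0982, 0.102 and 0.108 in regenerating axons, the closest agreement of any member among the 3 arrays (1.10-fold from lowest to highest). The uninjured arrays ranged from 0.525 to 4.34, so no array overlapped, and 0.535% of all probe sets had a lower mean. The difference was log2 -3.28 ± 0.90 (9.72-fold, adjusted p = 0.165 in limma). It passed without uninjured replicate 4, where the ratio was 4.34 (adjusted p = 0.0447), with the reference taken without error (0.000973) and with the 6 uninjured arrays as 1 group (0.00223).

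*Scg5* read 0.409, 0.590 and 0.575 in regenerating axons and overlapped the uninjured arrays, whose lowest was 0.587. Its difference of log2 -0.95 ± 0.36 did not pass (adjusted p = 0.344 in limma), but passed with the reference taken without error (0.00503) and with the 6 uninjured arrays as 1 group (0.0201). *Chgb* read 0.840, 0.820 and 0.639 (log2 -0.40 ± 0.38, adjusted p = 0.816 in limma). *Scg2* read 0.807, 1.20 and 0.865 (log2 -0.09 ± 0.24, adjusted p = 0.956 in limma), and *Pcsk2* read 1.16, 0.981 and 1.06 (log2 0.09 ± 0.24, adjusted p = 0.954 in limma). The 95% intervals, log2 -1.25 to 0.46, -0.63 to 0.45 and -0.45 to 0.63, leave room for changes of either sign.

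The *Pam* probe set 1367687_a_at read 1.27, 1.69 and 1.42 in regenerating axons, above all 6 measured uninjured arrays (highest 1.06). The difference of log2 0.53 ± 0.22 did not pass (adjusted p = 0.406 in limma), and passed with the reference taken without error (0.00794) and with the 6 uninjured arrays as 1 group (0.0110). The other *Pam* probe sets read 0.991 to 1.19 and 0.945 to 1.11, within the range of the uninjured arrays. In all, 3 of 10 probe sets had every regenerating array below every measured uninjured array, and 1 had every array above, against 10.9% and 10.3% of all probe sets.

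**Figure D3:**
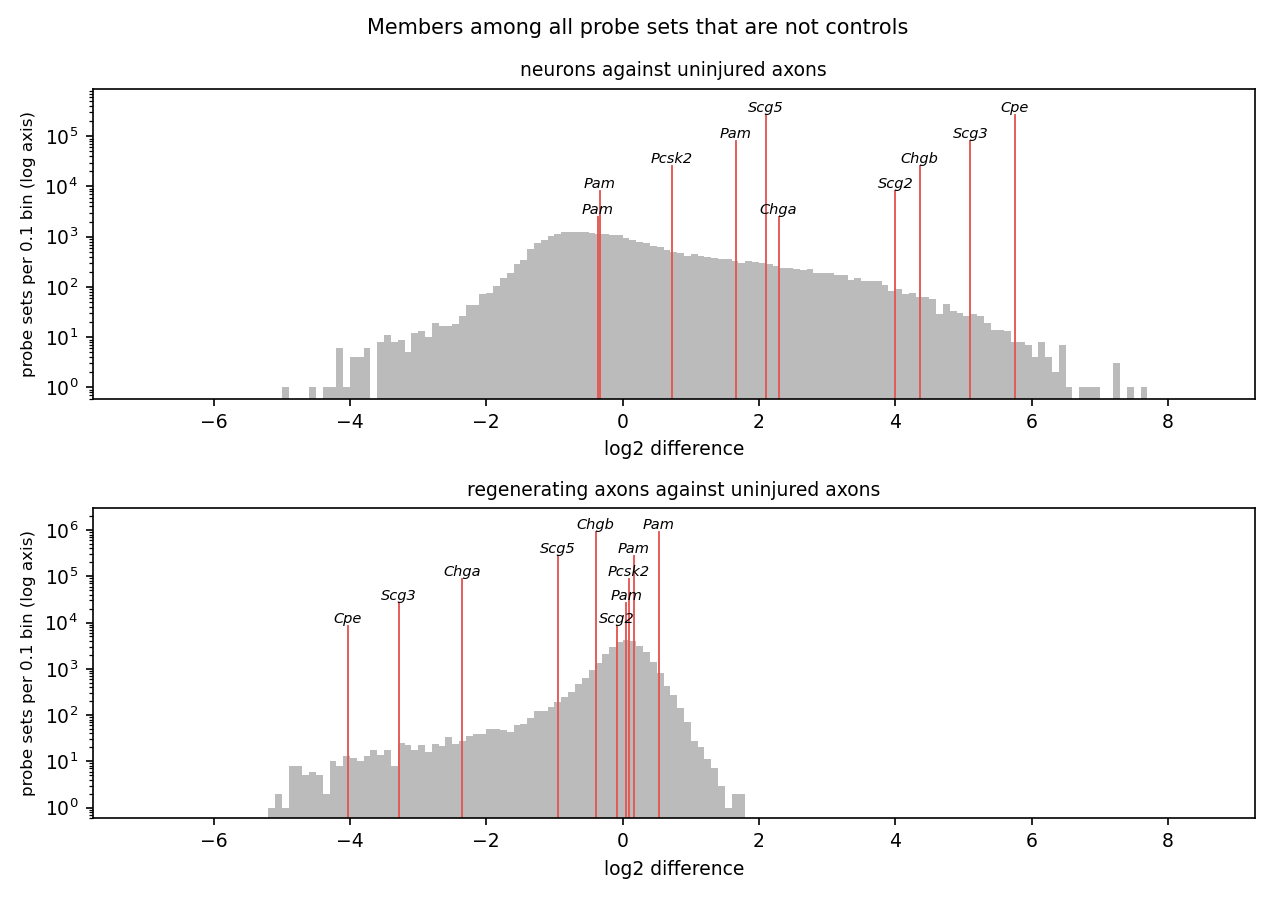
Histograms of the fitted log2 difference of all 31042 probe sets (counts per bin of 0.1, log axis), for neurons and for regenerating axons against uninjured axons, with red lines at the 10 members. *Cpe*, *Scg3* and *Chga* lie in the thin left tail of the lower panel, while the other members lie in or near the bulk.

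The granins thus lay to the right in the histogram for neurons and were spread from the left tail to near 0 in that for regenerating axons. *Chgb* and *Scg3*, at 20.5-fold and 34.4-fold above axons in neurons, read 0.766 ± 0.111 and 0.103 ± 0.005 (SD, n = 3) in regenerating axons. *Scg2* and *Chga* read 0.956 ± 0.210 and 0.199 ± 0.054 (SD, n = 3) there, against 16.0-fold and 4.89-fold in neurons. A difference between these genes was not tested, and both comparisons share the uninjured reference.

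Astrocyte markers in regenerating axons had median ratios of 0.856, 0.960 and 0.886 on arrays 1, 2 and 3, and none of 11 passed in either direction. *Fabp7* read 0.307, 0.191 and 0.279, and the highest astrocyte marker on each array 1.19, 1.32 and 1.16. Few genes passed in this comparison at all, 0.689% as lower and 0.0352% as higher. Neuronal markers had median ratios of 0.694, 0.701 and 0.576, and none of 12 passed. Among them *Stmn2* read 0.215, 0.0365 and 0.0414 and *Map2* 0.233, 0.199 and 0.167, as low as *Cpe* and *Chga*, while the highest marker on each array read 1.07 to 1.16. Oligodendrocyte lineage markers had median ratios of 0.848, 0.929 and 0.880 and none of 9 passed, with *Olig1* at 0.193, 0.134 and 0.114. Microglial markers had median ratios of 1.30, 1.14 and 1.24, and none of 9 passed. The 3′ control of GAPDH, at 0.355, 0.159 and 0.142, was low on the same arrays as *Chga*, *Scg3* and *Cpe*. What these shifts contribute to the member values was not tested.

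A direct comparison of regenerating axons with neurons does not use the uninjured arrays, but it assumes that both groups were divided by the same reference. All 7 probe sets outside *Pam* and 1 *Pam* probe set were lower in regenerating axons, 8 of 10, and the other two *Pam* probe sets were higher. Of all probe sets 35.2% passed as lower and 37.3% as higher. *Cpe* was 885-fold lower (log2 -9.79 ± 0.41, adjusted p = 6.17e-07 in limma) and *Scg3* 334-fold lower (log2 -8.38 ± 0.19, adjusted p = 1.32e-07 in limma). *Chgb* (log2 -4.75 ± 0.28), *Chga* (-4.65 ± 0.23), *Scg2* (-4.09 ± 0.29) and *Scg5* (-3.05 ± 0.22) followed, with limma adjusted p-values from 1.11e-06 to 8.95e-06. *Pcsk2* differed by log2 -0.63 ± 0.16 (adjusted p = 0.00770 in limma).

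The *Pam* probe set 1367687_a_at was 2.18-fold lower in regenerating axons than in neurons (log2 -1.13 ± 0.18, adjusted p = 0.000765 in limma). The probe sets 1370689_at and 1370502_at were higher by log2 0.50 ± 0.16 and 0.41 ± 0.16 (adjusted p = 0.0223 and 0.0411 in limma). For both, whether the signal stood above background cannot be read from a ratio. For 1370689_at the call was lost without regenerating replicate 1 (adjusted p = 0.0697) or 3 (0.0665), without neuron replicate 1 (0.0803) or 3 (0.0604), and with arrays centred on their median (0.0547). For 1370502_at it was lost without regenerating replicate 2 (0.114) or 3 (0.0947), without neuron replicate 1 (0.122) or 2 (0.0768), and with arrays centred (0.0865).

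Among uninjured axon arrays the members varied unequally. The SD of log2 ratios over the 6 measured arrays was 1.11 for *Scg3* and 0.79 for *Cpe*, larger than in 99.6% and 98.3% of all probe sets, whose median was 0.19. *Chgb* (0.41), *Scg5* (0.38) and *Chga* (0.35) were intermediate, *Pcsk2* (0.22) was near that median, and the first *Pam* probe set (0.15) and *Scg2* (0.13) were below it. Scaling to the median of each set of 3 arrays removes differences between the sets, so these SDs describe spread within sets.

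The high and low uninjured arrays differed by gene. *Scg3* was high on array 4 (4.34) and array 2 (2.02) and low on array 1 (0.525) and array 5 (0.687). *Cpe* was high on array 3 (3.08) and low on array 1 (0.664). Array 1 gave the lowest uninjured value for *Scg3*, *Cpe* and *Scg5* (0.587), and array 3 the highest for *Chga* (1.69) and *Cpe*. On array 4, where *Scg3* peaked, the astrocyte marker *Fabp7* read 14.7, and the other 10 astrocyte markers read at most 1.46. The oligodendrocyte lineage markers *Pdgfra* and *Olig1* read 12.9 and 6.23 on the same array, where the median of the 9 markers of that list was 1. Their part in the *Scg3* value was not tested. Neuronal markers had median ratios of 0.938 on array 1 and 1.15 on array 3.

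Other genes of the dense-core vesicle route were described by lists, with the mean of a gene's probe sets and a fit over 14217 genes, of which 36.9% passed as higher and 23% as lower in neurons. Of 17 genes listed as other convertases, carboxypeptidases and granin-like proteins, 9 were higher in neurons and 3 lower. Their median was log2 0.59, beside 0.22 over all genes. *Npdc1* is on this list, although it encodes a neural protein of none of these kinds. The lysosomal protease gene *Ctsb* (log2 4.84 ± 0.60), *Pcsk1n* (4.16 ± 0.35) and *Npdc1* (3.49 ± 0.43) were the largest rises, and *Cpxm2* (-1.31 ± 0.19), the convertase gene *Pcsk4* (-1.28 ± 0.21) and *Cpz* (-1.04 ± 0.27) the largest falls. Limma adjusted p-values of these 6 genes were between 1.77e-05 and 0.00943.

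Of 31 genes for vesicle assembly and membrane, 18 were higher in neurons and 2 lower (median log2 0.80). *Atp6ap2* (5.47 ± 0.57) and *Atp6ap1* (5.31 ± 0.39), accessory subunits of the proton pump that acidifies vesicles, and *Rab2a* (5.03 ± 0.33), a GTPase of vesicle maturation, led. The vesicular monoamine transporter genes *Slc18a2* (-1.19 ± 0.29) and *Slc18a1* (-1.06 ± 0.22) were lower in neurons. Whether their signals stood above background cannot be read from a ratio. Of 24 genes for docking and release, 11 were higher and 3 lower (median log2 0.50). *Snap25* (4.89 ± 0.61), *Rab3a* (3.45 ± 0.37) and *Syt4* (3.28 ± 0.42) stood at one end, and *Sytl4* (-0.95 ± 0.28), *Syt10* (-0.75 ± 0.16) and *Syt9* (-0.61 ± 0.18) at the other.

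Precursors of the cargo were listed too, and of these most calls were lower. Of 35 peptide and trophic factor precursors, 4 were higher in neurons and 17 lower (median log2 -0.54). The largest rises were those of *Sst* (somatostatin, 5.32 ± 0.63), *Cck* (cholecystokinin, 2.94 ± 0.62) and *Npy* (neuropeptide Y, 1.66 ± 0.46). The largest falls were those of *Npff* (-1.37 ± 0.22), *Calcb* (-1.12 ± 0.24) and *Pdyn* (-1.10 ± 0.19). For these genes too, a ratio does not show whether the signal stood above background. *Sst* read 56.1, 16.4 and 69.2 and *Cck* 9.28, 3.67 and 13.2 on neuron arrays 1, 2 and 3, so array 2 was again the lowest. Of 19 genes listed for the membrane of small synaptic vesicles, 13 were higher and 4 lower (median log2 1.49). The list includes *Sypl1* and *Syngr2*, which are related to synaptic vesicle protein genes but not confined to neurons. *Sypl1* (4.48 ± 0.52) and *Syngr3* (3.84 ± 0.36) stood at one end. *Syngr1* (-1.14 ± 0.17), *Sv2c* (-1.02 ± 0.25) and *Syngr2* (-0.66 ± 0.25) stood at the other. *Syp*, the synaptophysin gene, stood at 1.49 ± 0.23. The call for *Syngr2* (limma adjusted p = 0.0420) was lost without uninjured replicate 1, 2, 3 or 6, or without any 1 neuron replicate, with adjusted p-values from 0.0536 to 0.0703.

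**Figure D4:**
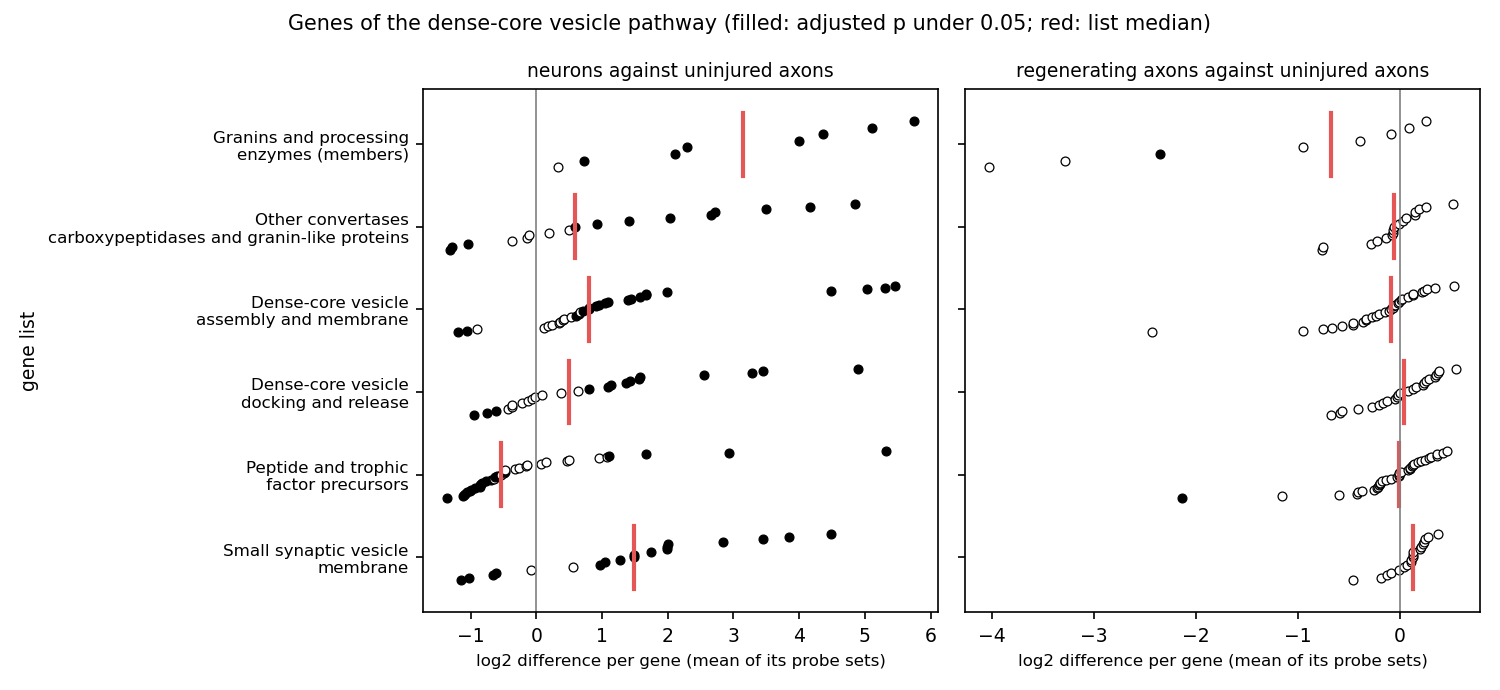
Fitted log2 difference per gene (mean of its probe sets) for the 8 measured member genes and the 5 other lists, against uninjured axons, filled where the adjusted p was under 0.05, with the list median in red. In neurons 7 of 8 member genes are filled on the right, and most peptide precursors lie left of 0. In regenerating axons *Chga* and *Cck* are the filled points.

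In regenerating axons 1 gene of these 5 lists passed against uninjured axons, *Cck*, which read 0.231, 0.200 and 0.255, against 0.761 to 1.80 in the 6 measured uninjured arrays (log2 -2.14 ± 0.37, adjusted p = 0.0412 in limma). Its call was lost without uninjured replicate 2 (0.0755), 5 (0.0595) or 6 (0.0708), without regenerating replicate 2 (0.122) or 3 (0.0971), and in 1 fit over all 13 arrays (0.127). Over all genes, 0.689% passed as lower and 0.0352% as higher. The list medians lay between log2 -0.09 and 0.12. *Kif1a*, the motor that carries dense-core vesicles along axons, was the furthest of the others at log2 -2.43 and did not pass (adjusted p = 0.0926 in limma). It was picked out after its value was seen.

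Against neurons, 9 of the 17 genes on the convertase list were lower in regenerating axons and 4 higher. The counts were 25 and 2 for the 31 assembly genes and 12 and 5 for the 24 release genes. For the 19 genes on the small-vesicle list they were 13 and 5. Peptide precursors were lower in 7 of 35 cases and higher in 19. Over all genes 44.2% passed as lower and 31.3% as higher. The largest falls were those of *Atp6ap2* (log2 -6.13 ± 0.34), *Atp6ap1* (-5.77 ± 0.15), *Sst* (-5.73 ± 0.49), *Rab2a* (-5.60 ± 0.21) and *Snap25* (-5.57 ± 0.31). Both *Ctsb* and *Cck* stood at -5.07, with SEs of 0.12 and 0.42, and *Pcsk1n* at -4.93 ± 0.25. The largest rises were those of *Npff* (1.73 ± 0.15), *Iapp* (1.52 ± 0.14), *Pcsk4* (1.42 ± 0.15) and *Gal* (1.41 ± 0.23), and the monoamine transporter gene *Slc18a2* stood at 1.40 ± 0.21. Against uninjured axons none of these rises passed, with *Npff* at log2 0.36, *Iapp* at 0.47, *Pcsk4* at 0.14, *Gal* at 0.42 and *Slc18a2* at 0.21. Whether their signals stood above background cannot be read from a ratio.

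The gene outside these lists with the profile nearest to each member was found by Euclidean distance of log2 ratios over the 12 measured arrays, among 13850 genes. *Pam* (mean of its probe sets) was nearest to *Sec22a* (distance 0.35), *Pcsk2* to *Fbxo30* (0.40), *Scg2* to *Ssbp2* (0.60), *Scg5* to *Mrpl34* (0.72), *Chgb* to *Gnao1*, a G protein subunit gene (0.86), and *Chga* to *Ndufc2*, a subunit gene of respiratory complex I (0.89). *Cpe* and *Scg3* had no neighbour as close, with *Ywhae*, a 14-3-3 protein gene, at 1.86 and the chaperonin gene *Cct7* at 2.21. These 12 arrays come from the same few groups, and the regenerating and neuron arrays were read as ratios to the same uninjured axons. Nearness therefore describes the profile alone. In neurons *Ywhae* stood at log2 5.28 ± 0.57 and *Cct7* at 5.25 ± 0.50, and in regenerating axons at -3.40 ± 0.74 (adjusted p = 0.0760 in limma) and -3.38 ± 0.50 (adjusted p = 0.0317 in limma). *Ndufc2*, the neighbour of *Chga*, stood at log2 2.31 ± 0.36 in neurons and -1.99 ± 0.30 in regenerating axons (adjusted p = 0.0329 in limma), a call that was lost without uninjured replicate 2 (0.0596) or 6 (0.0600) or regenerating replicate 2 (0.0931) or 3 (0.0847). The call for *Cct7* was lost without uninjured replicate 2 (0.0596) or 6 (0.0600) or regenerating replicate 2 (0.0931) or 3 (0.0841), and *Ywhae* passed without uninjured replicate 3 (0.0448) or regenerating replicate 1 (0.0229).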

How the data were processed

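Expression of 31099 probe sets was read from the deposited table, whose values are linear ratios per array. The submitters' processing notes list RMA, with no settings, and how the authors formed the ratio is not given in the sources used here. In 100% of rows the median of uninjured arrays 1 to 3, and of 4 to 6, is 1 (tolerance 0.0001), and array 7 equals 1. Log2 ratios were fitted in limma 3.58.1 (R 4.3.3, moderated by eBayes) over 31042 probe sets, or 14217 genes by the mean of probe sets with 1 symbol. Against uninjured axons, the spread came from the group's 3 arrays and the 2 uninjured sets, and array 7 stood for a reference with the error of 1 array. This error was assigned, not measured. Regenerating axons and neurons were compared in a 2-group fit. P-values were adjusted by Benjamini-Hochberg over all features (threshold 0.05). Replicate numbers were not taken to pair arrays: deviations of same-numbered arrays correlated at -0.31 to 0.13. Named genes are all members, each member's nearest gene, and up to 3 largest rises and falls per list among those past the threshold. Members and lists were chosen with earlier results of these data known. Gene symbols are those of the platform annotation, and those of the 8 measured members were the same in the GRCr8 gene table.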

Additional observations from a re-analysis of the deposited data

Results flagged for a closer look

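Among the 6 measured uninjured arrays, 2 values stood far from the other 5 of their probe set. *Scg2* read 0.827 on array 4, and the gap to the next array took up 0.705 of the whole log2 range. *Scg5* read 0.587 on array 1, with a gap of 0.644 of the range. Chance sets apart about 1 in 20 groups of freely varying values, but here the scaling fixes the median of each set of 3 arrays at 1, so that rate does not apply as it stands. In all, 10 probe sets were examined. The cause was not tested.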

How the results depend on the processing

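For neurons against uninjured axons 8 probe sets stayed higher, or 7 to 8 when 1 array was left out. 1 was lower with the reference taken without error, and over all probe sets 12959 were then lower, against 8523. Gene means gave 5249 higher and 3271 lower genes (36.9% and 23% of 14217). The probe sets gave 8820 and 8523 (28.4% and 27.5% of 31042).

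For regenerating against uninjured axons the main count was 1 lower and 0 higher among members, and 104 and 3 among all probe sets. With the reference taken without error these were 4 and 1, and 3707 and 3539. With the 6 uninjured arrays as 1 group they were 4 and 1, and 2924 and 2298. With the replicate block they were 3 and 0, and 600 and 68, where *Scg3* (adjusted p = 0.0253) and *Cpe* (0.0443) passed in limma. The fit over all 13 arrays gave 48 lower over all probe sets, and 0.1 added before log2 gave 0 lower members. Gene means gave 5 higher genes (0.0352% of 14217), beside 0.00966% of 31042 probe sets. Leaving out 1 array gave 0 to 2 lower members, and 0 to 462 lower and 0 to 17 higher over all probe sets. The number of members that pass thus moved with the error given to the reference, with the block, with the added value and with single arrays.

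For regenerating axons against neurons 8 members were lower in every setting on probe sets. The 2 higher members became 0 with gene means, with centred arrays and with the replicate block, and 0 to 1 with 1 array left out. Gene means gave 4444 higher and 6279 lower genes (31.3% and 44.2% of 14217). The probe sets gave 11568 and 10930 (37.3% and 35.2% of 31042).

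The replicate numbers were not taken to pair the arrays. Of the 3 arrays of a group at most 1 correlated best with its own number. With so few arrays these correlations cannot decide whether same-numbered arrays belong together. Near 0 the sign turned for *Scg2* in regenerating axons without regenerating replicate 1 (range log2 -0.26 to 0.025 with 1 array left out). It turned for *Ssbp2* without regenerating replicate 2 (range -0.022 to 0.10) and with the 6 uninjured arrays as 1 group (-0.0026). Array 7 could not be left out, since it stands for the reference. A ratio has no signal over background, so low signals cannot be told from real ones.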
